A study of Mus musculus with 26 samples.

Results

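The urea cycle and the breakdown of amino acids were followed through 46 liver genes, chosen by gene name for their place in these pathways and all found among the 47643 genes of the count table. They were read in 10 role groups: urea cycle (7 genes), histidine breakdown (4), serine, threonine, glutamine and glutamate breakdown (4), tyrosine breakdown (5), tryptophan breakdown (6), proline and hydroxyproline breakdown (3), lysine breakdown (1), aminotransferases (5), branched-chain breakdown (4), and methionine and sulfur amino acids (7). Messenger RNA was sequenced in 26 libraries of mouse liver that form 5 experiments, each with a control group of its own. In the first, wild-type C57BL/6J mice of 8 weeks fed ad libitum received corn oil (2 libraries) or TCPOBOP, an activator of the nuclear receptor CAR (2 libraries). The TCPOBOP time is 36 h in the sample titles and 6 h in the source names, so it is not certain. In the second, whole livers of Fxr-/- Shp-/- mice were set against wild type (3 libraries each, C57BL/6J, 12 weeks, ad libitum). Fxr is the bile acid receptor and Shp a repressor that acts downstream of it, and both are missing from the whole animal as far as the labels say. In the third, C3H/HeN livers 48 h after partial hepatectomy (removal of part of the liver, labelled PHx) were set against a sham group labelled 0 h (3 libraries each, 8 to 10 weeks, ad libitum), so that surgery and time cannot be told apart. In the fourth, hepatocytes of wild-type C57BL/6J mice fed a 60% high fat diet were set against hepatocytes of chow-fed mice (2 libraries each, 16 weeks, 10 h fast). In the fifth, C57BL/6J mice with the genotype fl/fl Fxr fl/fl Shp received chow with or without cholic acid, one of the primary bile acids (3 libraries each, 10 to 12 weeks, 8 to 10 h fast, whole liver). No Cre is named for them, and both diet groups carry the floxed alleles.

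Amino acids that are not used for protein are stripped of their nitrogen mainly in the liver. Aminotransferases and deaminating enzymes pass that nitrogen to glutamate, aspartate and ammonia, and the urea cycle turns it into urea for excretion, while the carbon skeletons are burned or made into glucose. The urea cycle and several breakdown enzymes are strongest in periportal hepatocytes, which lie around the incoming blood, and many of the genes are known to respond to glucagon, glucocorticoids and dietary protein.

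The 4 enzymes of histidine breakdown act in a row: Hal removes ammonia from histidine, Uroc1 and Amdhd1 open the product, and Ftcd hands its last carbon to folate. Hal and Amdhd1 are neighbours on chromosome 10, 4033 bp apart in the GENCODE M21 annotation of build GRCm38. Because these 4 genes moved together in 2 of the comparisons and Bhmt, which remethylates homocysteine with betaine, showed the deepest fall of the 46 genes, the 250 bases before their starts are printed from RefSeq (build GRCm38.p6), 5′ to 3′ along each gene. The windows are chr10:93488518-93488767 (+) for Hal, chr6:90333039-90333288 (+) for Uroc1, chr10:93540034-93540283 (-) for Amdhd1, chr10:76575398-76575647 (+) for Ftcd and chr13:93637759-93638008 (-) for Bhmt. Capitals mark matches to the letters searched on both strands.
Hal: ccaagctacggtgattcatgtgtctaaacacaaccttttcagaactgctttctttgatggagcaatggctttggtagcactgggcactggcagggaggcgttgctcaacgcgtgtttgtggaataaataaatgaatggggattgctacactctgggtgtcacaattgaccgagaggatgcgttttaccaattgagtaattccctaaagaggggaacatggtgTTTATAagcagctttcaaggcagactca
Uroc1: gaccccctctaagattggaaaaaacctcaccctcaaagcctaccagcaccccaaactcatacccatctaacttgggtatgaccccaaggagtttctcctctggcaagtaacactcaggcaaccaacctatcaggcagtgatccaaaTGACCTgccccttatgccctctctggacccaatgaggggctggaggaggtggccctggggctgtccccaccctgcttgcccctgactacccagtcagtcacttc
Amdhd1: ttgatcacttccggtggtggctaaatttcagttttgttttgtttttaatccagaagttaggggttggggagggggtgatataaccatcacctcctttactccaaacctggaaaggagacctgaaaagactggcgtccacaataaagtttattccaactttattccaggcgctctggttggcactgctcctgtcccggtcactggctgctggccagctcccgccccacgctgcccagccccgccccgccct
Ftcd: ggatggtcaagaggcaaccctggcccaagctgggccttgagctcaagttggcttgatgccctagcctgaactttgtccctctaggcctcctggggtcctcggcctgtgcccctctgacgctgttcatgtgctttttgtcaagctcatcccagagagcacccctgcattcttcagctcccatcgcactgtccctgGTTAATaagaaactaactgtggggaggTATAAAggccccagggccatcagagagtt
Bhmt: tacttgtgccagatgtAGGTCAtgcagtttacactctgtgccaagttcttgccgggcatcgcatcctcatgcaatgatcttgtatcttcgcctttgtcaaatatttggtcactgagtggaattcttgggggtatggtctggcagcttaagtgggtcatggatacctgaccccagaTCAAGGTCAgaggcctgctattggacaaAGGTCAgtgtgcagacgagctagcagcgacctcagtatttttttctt
The letters searched were TATAAA (the TATA box), TGACGTCA (CRE), TTGCGCAA (C/EBP palindrome), CACGTG (E-box), AGGTCA (the core of nuclear receptor sites), TCAAGGTCA (LRH-1 type site, which contains AGGTCA), CAAAGTCCA (HNF4 type site), AGAACA (part of a glucocorticoid receptor site) and GTTAAT (part of an HNF1 site).

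The TATA letters began 28 bases before the start in Hal, on the minus strand, and 29 bases before it in Ftcd, and 12.4% of the 32851 windows of this length in the table held them. Ftcd also held GTTAAT (6.43% of all windows). Uroc1 held AGGTCA 104 bases before its start (14% of all windows). Amdhd1 held none of the letters, so the windows of the histidine enzymes had no searched letters in common. The Bhmt window held AGGTCA at 234, 72 and 47 bases before the start. The match at 72 lies inside TCAAGGTCA, which was in 0.387% of all windows and in no other window of the 46 genes. GENCODE M21 starts Bhmt at chr13:93637961, inside this window, so there the matches at 72 and 47 lie within the gene. RefSeq windows were found for 34 of the 46 genes, as 38 windows in all. AGGTCA was in 34.2% of those 38 and in 13 genes, AGAACA in 7.89% against 16.1% of all windows, and TGACGTCA, TTGCGCAA and CAAAGTCCA in none of them. These are matches of letters and not binding sites.

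Reads counted to genes ranged from 13949059 to 70367874 per library. In the knockout experiment the share of reads that mapped to several places was 43.2% to 44.1% in the wild-type libraries and 25.5% to 26.9% in the knockout libraries. It was 16.6% to 25.1% in all other libraries, and its part in the knockout results was not tested. Levels are given as CPM (gene counts relative to the scaled total of their library), with scaling within each experiment, so levels of different experiments are set side by side only as a description. Markers of hepatocytes (5 of 6 found) summed to 43306 CPM or more in every library. The 5 bile duct markers summed to 9.92 to 10.3 CPM in the chow hepatocytes, where Krt19 and Epcam were at 0 in both libraries. In the high fat hepatocytes they summed to 9.81 to 16.2 CPM, and none was at 0 in both libraries. The labels give replicate numbers but do not say how the animals were drawn, and p-values measure only the spread between these libraries. The library labelled corn oil 1 goes against its label: the CAR target Cyp2b10 stood at 3786 CPM there, close to the 3465 and 3079 CPM of the TCPOBOP libraries, and at 10.3 CPM in corn oil 2. Exons of 11 of the 46 genes overlap those of another gene (61.7% of the exon length of Bckdha, 44.2% of Afmid, 32.5% of Aldh4a1, 21.3% of Sds, 15.6% of Nags, 9.1% or less of each partner in the others), so their counts are uncertain to that extent. Whether the counting used strand is not given in the sources used here. The overlaps given for Afmid and Aldh4a1 are with a gene on the same strand, which a count by strand would not separate.

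Per kilobase of annotated exon (RPKM), the order of the 46 transcripts differed between the control groups. Ass1, which joins citrulline and aspartate in the urea cycle, was the highest of the 46 in the corn oil, sham, chow hepatocyte and floxed chow controls, at 1224 ± 446 (SD, n = 2), 1534 ± 74.5 (n = 3), 1379 ± 324 (n = 2) and 1789 ± 230 RPKM (n = 3). In the wild-type controls of the knockout experiment it was ninth, at 414 ± 55.6 RPKM (n = 3). Mat1a, which makes the methyl donor S-adenosylmethionine, led there with 2133 ± 437 RPKM, followed by Tat, the first enzyme of tyrosine breakdown, with 1824 ± 456 RPKM. In the corn oil controls these 2 genes ranked 7 and 6, at 557 ± 259 and 578 ± 338 RPKM (n = 2). At the low end were Afmid, Sdsl and Acmsd, with 6.56 to 12.1, 7.72 to 23.8 and 5.98 to 35.6 RPKM as means of the control groups. All 46 genes passed the filter on low counts in every comparison.

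The number of genes that changed (edgeR's quasi-likelihood test, adjusted p under 0.05 over all genes tested) was 28 of 46 after hepatectomy, 24 in the knockout, 14 in high fat hepatocytes, 5 with cholic acid feeding and 0 with TCPOBOP. These counts are to be read against those over all genes, 4225 of 13753 after hepatectomy, 5441 of 13473 in the knockout, 3333 of 13892 in high fat hepatocytes, 600 of 12577 with cholic acid and 0 of 12785 with TCPOBOP. Falls outnumbered rises after hepatectomy (27 against 1) and in the knockout (18 against 6), while rises outnumbered falls on the high fat diet (10 against 4). Over the 4 comparisons with calls, 5 genes were called in none (Cps1, Slc25a15, Glud1, Got2 and Dbt), 20 in 1, 13 in 2, 7 in 3, and Hal alone in all 4. Of the 46, 12 genes were called up in at least 1 comparison and down in another (Nags, Hal, Uroc1, Amdhd1, Ftcd, Gls2, Acmsd, Prodh2, Aldh4a1, Gpt2, Bhmt and Csad). Calls over several comparisons were not counted for all genes, so these counts do not set the 46 genes apart.

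**Figure D1:**
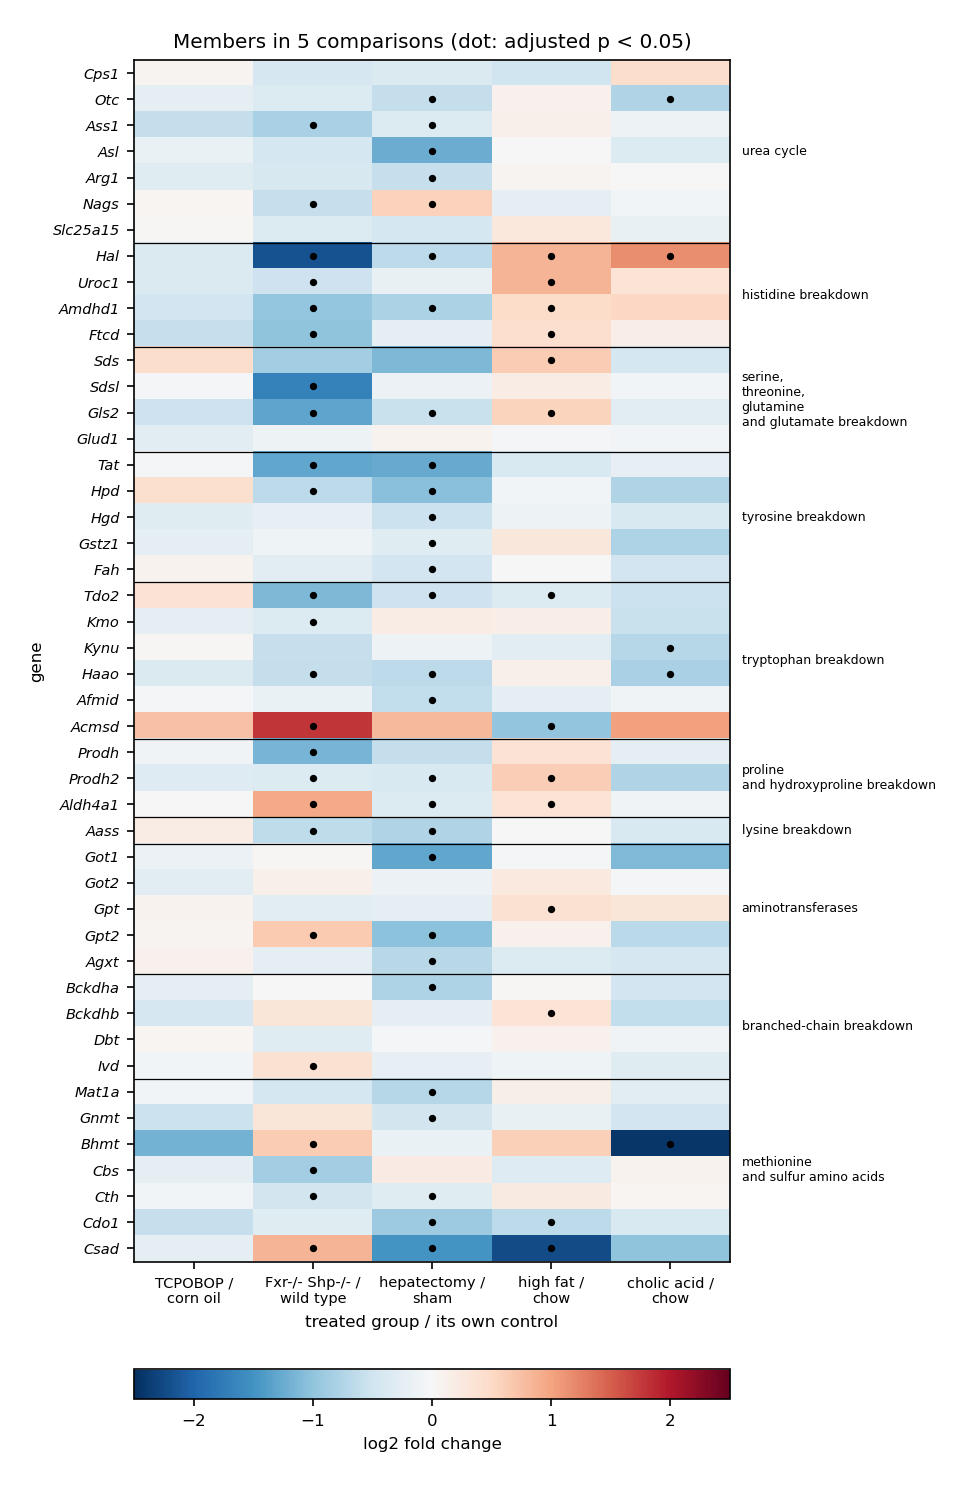
Log2 fold change of the 46 genes (rows, by role group) in 5 comparisons (columns), each treated group against its own control; blue is lower and red is higher in the treated group, and a dot marks an adjusted p under 0.05. The hepatectomy column holds 27 falls and 1 rise, the 4 histidine genes fell in the knockout and rose on the high fat diet, and the TCPOBOP column has no dot.

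In Fxr-/- Shp-/- livers the histidine enzymes, the serine and glutamine deaminating enzymes Sdsl and Gls2, and Prodh and Tdo2, the first enzymes of proline and tryptophan breakdown, fell, while Acmsd, Aldh4a1 and Csad rose. Of the 46 genes, 18 were lowered (39.1%) and 6 raised (13.0%), with a median log2 fold change of -0.35. Over all 13473 genes tested 19.4% were lowered and 21% raised, with a median of -0.01. The summed level of the 46 genes was 43139 to 53495 CPM in the wild-type libraries and 34459, 32918 and 45406 CPM in knockout 1, 2 and 3. Knockout 3 was thus within the wild-type range, and it held the highest knockout value for 27 of the 46 genes. Without it 33 genes were called, 27 lowered and 6 raised. Calls over all genes rose as well, from 5441 of 13473 to 6024 of 13716.

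**Figure D2:**
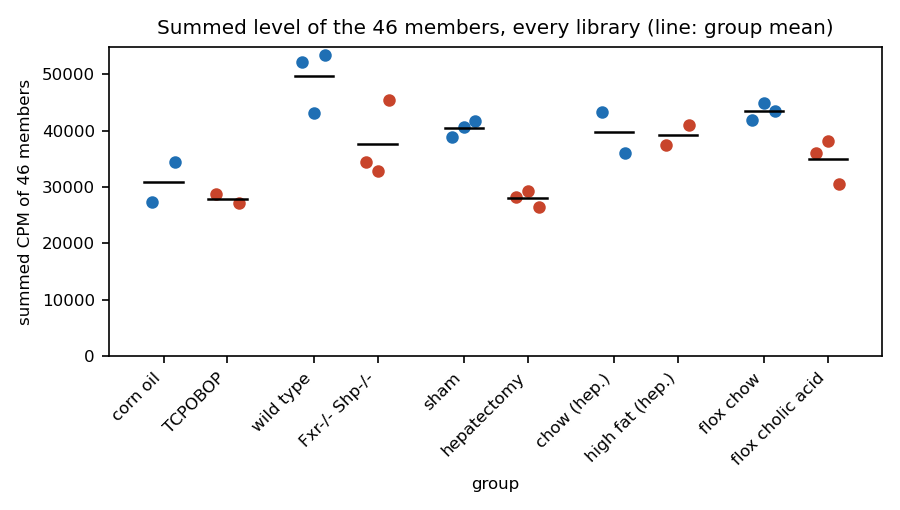
Summed CPM of the 46 genes in each of the 26 libraries (points; blue controls, red treated, lines group means). The hepatectomy libraries lie at 26504 to 29227 CPM, all below the sham libraries at 38885 to 41761 CPM, while knockout 3 at 45406 CPM lies inside the wild-type range.

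All 4 histidine genes were lowered in the knockout. Hal (ENSMUSG00000020017.14, chr10:93488768-93519304) stood at 517, 603 and 482 CPM in wild type and at 128, 111 and 117 CPM in the knockout. The groups were far apart, and the fall was 4.51-fold (log2 fold change -2.17 ± 0.12 SE, adjusted p 4.65e-06). Amdhd1 went from 218, 204 and 201 to 110, 115 and 94.7 CPM (log2 -0.96 ± 0.10, adjusted p 0.000154), and Ftcd from 305, 283 and 245 to 133, 138 and 143 CPM (log2 -1.01 ± 0.10, adjusted p 0.000147). Uroc1 fell least, from 291 to 315 down to 193 to 228 CPM (log2 -0.52 ± 0.10, adjusted p 0.00328). Knockout 3 lay with the other knockout libraries for each of them. In bulk liver, fewer hepatocytes and less RNA per hepatocyte cannot be told apart.

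In the serine, threonine, glutamine and glutamate group, Sdsl and Gls2 fell. Sdsl, a relative of serine dehydratase, had 36.7, 29.9 and 40.5 CPM in wild type and 10.6, 9.01 and 13.7 CPM in the knockout (log2 -1.68 ± 0.17, adjusted p 0.000145). Gls2, the liver glutaminase that frees ammonia from glutamine, had 457, 369 and 428 against 174, 176 and 150 CPM (log2 -1.32 ± 0.11, adjusted p 5.98e-05). Serine dehydratase itself, Sds, which lies 3715 bp from Sdsl on chromosome 5, had 335, 178 and 261 against 98.2, 112 and 217 CPM. Its ranges overlapped through knockout 3, and its log2 fold change of -0.86 ± 0.32 did not pass (adjusted p 0.0578). Glud1, glutamate dehydrogenase, was at -0.12 ± 0.11 (adjusted p 0.398).

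Prodh, proline dehydrogenase, had 233, 194 and 185 CPM in wild type and 92.8, 91.8 and 89.8 CPM in the knockout (log2 -1.16 ± 0.11, adjusted p 7.51e-05). Tdo2, which opens the ring of tryptophan, had 3814, 3453 and 4037 against 1448, 1508 and 2196 CPM (log2 -1.13 ± 0.17, adjusted p 0.0012). Both sets of values were apart, and knockout 3 was the nearest to wild type for Tdo2 only. Cbs, which starts the conversion of homocysteine to cysteine, fell by 0.87 ± 0.12 on the log2 scale (adjusted p 0.000622). Tat had 4316, 3327 and 5517 against 1027, 1071 and 3233 CPM. Knockout 3 lay just below the lowest wild-type library, and the log2 fold change was -1.30 ± 0.43 (adjusted p 0.0375). The Tat call did not survive the removal of any 1 library other than knockout 3 (values from -2.06 to -1.04) or DESeq2's Wald test (adjusted p 0.0859). Smaller falls were also called for Hpd, Aass and Haao (-0.66 ± 0.12, -0.64 ± 0.15 and -0.60 ± 0.11) and for Cth, Kmo and Prodh2 (-0.45 ± 0.14, -0.34 ± 0.10 and -0.34 ± 0.10). The calls of Cth and Kmo did not pass without wild type 1 or 3 or knockout 1 or 2 (ranges -0.58 to -0.33 and -0.39 to -0.27), nor that of Prodh2 without wild type 1 or 3 or knockout 1 (-0.40 to -0.26).

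In the urea cycle, 2 of 7 genes were lowered and none raised. Ass1 had 1068, 846 and 1087 CPM in wild type and 535, 493 and 687 CPM in the knockout (log2 -0.81 ± 0.16, adjusted p 0.00383). Nags, which makes the N-acetylglutamate that switches on Cps1, fell by 0.57 ± 0.09 on the log2 scale (adjusted p 0.00146). Cps1, the entry enzyme of the cycle, had 6924, 6567 and 7981 against 4801, 4278 and 7021 CPM (log2 -0.42 ± 0.19, adjusted p 0.115). Arg1, which releases urea, had 2705, 2465 and 2974 against 1671, 1554 and 2887 CPM (log2 -0.41 ± 0.23, adjusted p 0.174). In both genes knockout 3 lay inside the wild-type range and the other 2 knockout libraries lay below it. Mat1a, at the entry to the methyl cycle, had 8379, 5653 and 8158 against 4875, 4321 and 7108 CPM (log2 -0.44 ± 0.22, adjusted p 0.138).

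**Figure D3:**
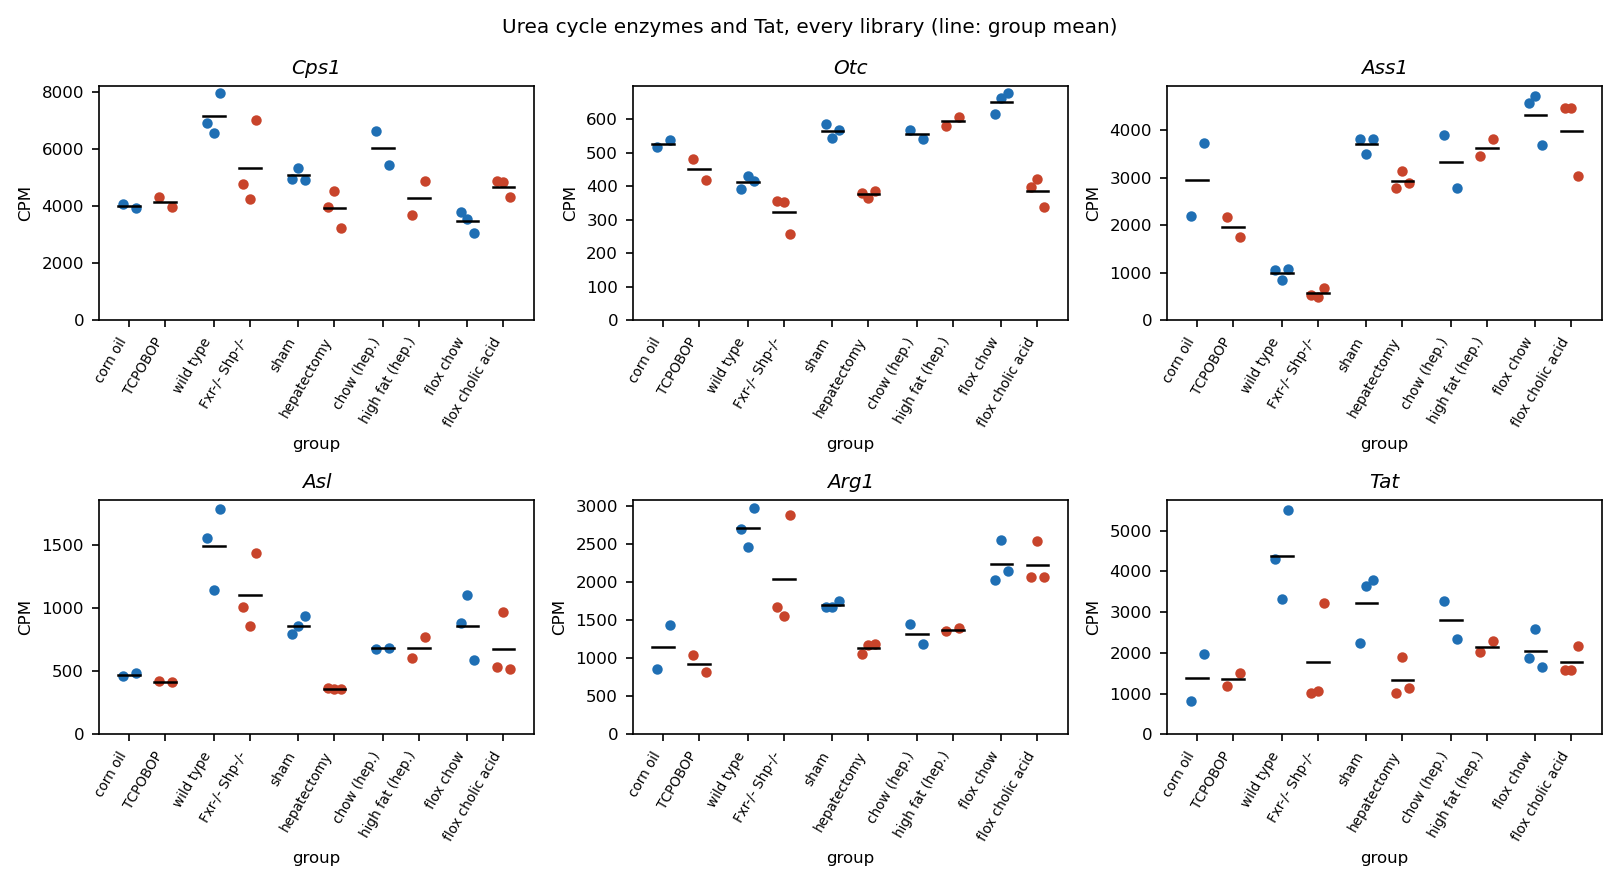
CPM of 5 urea cycle genes and Tat in every library by group (blue controls, red treated, lines group means). For Cps1, Arg1 and Asl 1 knockout library stands with wild type, whereas the 3 hepatectomy libraries of Asl at 360 to 365 CPM lie below all 3 sham libraries at 791 to 934 CPM.

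The 6 genes raised in the knockout came from several roles. Acmsd (chr1:127729413-127767978), which diverts the tryptophan pathway away from NAD synthesis, had 40.2, 34.5 and 54.3 CPM in wild type and 182, 159 and 103 CPM in the knockout (3.44-fold, log2 1.78 ± 0.23, adjusted p 0.000491). Aldh4a1, which turns the proline product into glutamate, had 192, 171 and 180 against 335, 356 and 361 CPM (log2 0.95 ± 0.09, adjusted p 9.46e-05). Csad (ENSMUSG00000023044.1, chr15:102176999-102204724), the decarboxylase on the way from cysteine to taurine, had 359, 242 and 324 against 517, 596 and 544 CPM (log2 0.84 ± 0.15, adjusted p 0.00247). The groups of these 3 genes were apart. Gpt2, an alanine aminotransferase, Bhmt, and Ivd of leucine breakdown rose by 0.65 ± 0.14, 0.63 ± 0.12 and 0.39 ± 0.08 on the log2 scale (adjusted p 0.00597, 0.00305 and 0.00695). The call of Csad was lost in a single fit over all 26 libraries (log2 0.82, adjusted p 0.0843). The other 22 genes had log2 fold changes of -0.86 to 0.30 and did not pass.

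Related lists outside the 46 genes also moved in the knockout. Of 13 regulators of amino acid breakdown 8 were lowered and 1 raised: Klf15, a glucocorticoid-responsive activator of these genes, fell by 1.87 ± 0.24, Cebpb by 1.5 ± 0.22 and Foxo1 by 1.37 ± 0.16 on the log2 scale, while the starvation hormone gene Fgf21 rose by 1.74 ± 0.31. Among 5 tested amino acid synthesis genes 3 were raised and 1 lowered, with Asns (asparagine synthetase) from 6.33 to 9.85 CPM in wild type to 43.5 to 90.9 CPM (log2 2.86 ± 0.30) and Psat1 and Aldh18a1 at 1.96 ± 0.50 and 1.65 ± 0.35. Among 11 transporters 4 were raised and 3 lowered. The cystine carrier Slc7a11 was at 0 CPM in every wild-type library and at 0.915 to 2.41 CPM in the knockout, and Slc38a2 fell by 1.80 ± 0.20. Of 14 further branched-chain enzymes 6 were lowered and 2 raised, of 11 phenylalanine, glycine and folate-linked enzymes 5 were lowered, and Aadat, which acts on kynurenine and on a lysine product, fell by 1.19 ± 0.13.

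Markers of other liver cells moved with the knockout. Bile duct markers (5 of 5 found) summed to 27.3 to 38.0 CPM in wild type and 57.4 to 135 CPM in the knockout, stellate and fibroblast markers (6 of 6) to 159 to 273 and 391 to 440 CPM, and lymphocyte and neutrophil markers (6 of 6) to 1.57 to 3.17 and 11.0 to 21.9 CPM. Macrophage and sinusoidal endothelium markers overlapped between the groups (130 to 287 against 180 to 406 CPM, and 61.0 to 113 against 112 to 164 CPM), as did hepatocyte markers (81272 to 107489 against 62135 to 82385 CPM). No marker of these lists was at 0 in every library of a group. Their part in the changes of the 46 genes was not tested.

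After partial hepatectomy the falls were broad: 27 of the 46 genes were lowered (58.7%) and Nags alone was raised (2.17%), with a median log2 fold change of -0.46. Over all 13753 genes tested 14.3% were lowered and 16.4% raised, with a median of 0.01. The summed level of the 46 genes lay below the sham range in every hepatectomy library, at 28187, 29227 and 26504 CPM against 38885, 40722 and 41761 CPM. All 5 tyrosine enzymes were lowered, as were 5 of 7 methionine and sulfur genes, 4 of 7 urea cycle genes, 3 of 5 aminotransferases, 3 of 6 tryptophan genes, 2 of 4 histidine genes, 2 of 3 proline genes, Aass of lysine breakdown, 1 of 4 branched-chain genes and 1 of the 4 serine and glutamine genes.

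Asl, which splits argininosuccinate to arginine, had 791, 855 and 934 CPM in sham livers and 365, 362 and 360 CPM after hepatectomy (2.37-fold lower, log2 -1.25 ± 0.09, adjusted p 3.73e-05). Arg1 had 1674, 1672 and 1752 against 1059, 1178 and 1185 CPM (log2 -0.58 ± 0.08, adjusted p 0.0017). Otc, which makes citrulline, fell by 0.59 ± 0.08 (adjusted p 0.000992). These groups did not overlap and the spread within each was small. Ass1 had 3812, 3494 and 3800 against 2776, 3134 and 2886 CPM (log2 -0.34 ± 0.09, adjusted p 0.0241). Cps1 had 4967, 5365 and 4944 against 3985, 4552 and 3256 CPM, also apart, but its log2 fold change of -0.37 ± 0.13 did not pass (adjusted p 0.0599). Nags rose against this direction, from 61.4, 59.5 and 66.5 to 87.5, 91.5 and 98.7 CPM (log2 0.57 ± 0.08, adjusted p 0.00195).

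In tyrosine breakdown, Tat had 2252, 3640 and 3801 CPM in sham livers and 1014, 1893 and 1138 CPM after hepatectomy (log2 -1.26 ± 0.27, adjusted p 0.0105), and Hpd, the next enzyme, 2189, 2325 and 2489 against 1098, 1186 and 1111 CPM (log2 -1.04 ± 0.09, adjusted p 0.000102). Hpd was the tighter of the pair, although both groups were apart. Hgd, Fah and Gstz1, the last steps, fell by 0.53 ± 0.08, 0.48 ± 0.10 and 0.31 ± 0.10 on the log2 scale. Tdo2 had 1449, 1384 and 1324 against 956, 1011 and 931 CPM (log2 -0.52 ± 0.08, adjusted p 0.0024). Of the histidine enzymes, Hal had 276, 245 and 250 against 148, 164 and 175 CPM (log2 -0.66 ± 0.09, adjusted p 0.0013) and Amdhd1 fell by 0.80 ± 0.11 (adjusted p 0.00158). Ftcd and Uroc1, at -0.25 ± 0.09 and -0.18 ± 0.10, did not pass (adjusted p 0.0642 and 0.219).

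**Figure D4:**
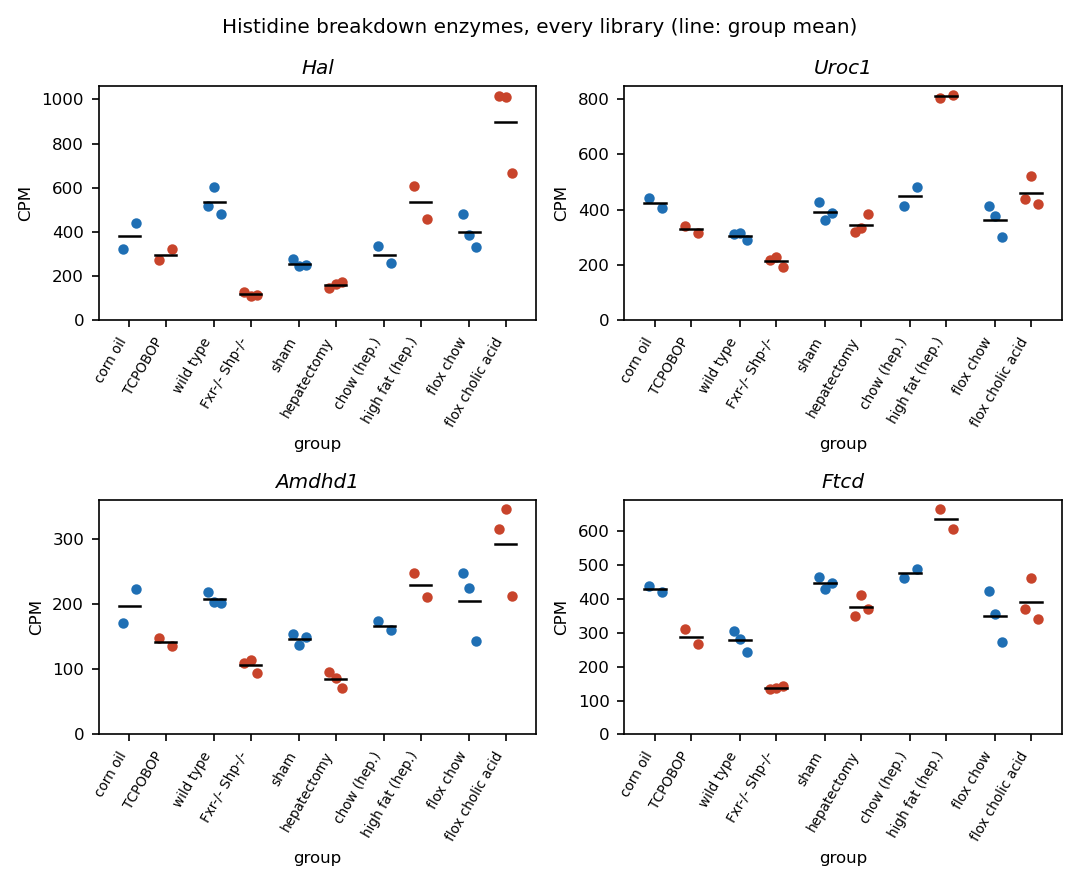
CPM of the 4 histidine breakdown enzymes in every library by group (blue controls, red treated, lines group means). The knockout libraries lie below wild type and the high fat libraries above chow in all 4 panels, and Hal also stands higher on cholic acid (665 to 1015 CPM) than on chow (331 to 481 CPM).

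Csad showed the largest fall after hepatectomy, from 56.5, 38.6 and 35.2 to 15.6, 13.8 and 16.7 CPM (2.82-fold lower, log2 -1.5 ± 0.18, adjusted p 0.000704). Cdo1, which oxidises cysteine a step earlier, fell by 0.91 ± 0.11 (adjusted p 0.000858), and Mat1a had 4019, 4382 and 4347 against 2763, 2675 and 2277 CPM (log2 -0.72 ± 0.10, adjusted p 0.00147, not called in a single fit over all 26 libraries). Bhmt and Cbs, at -0.17 ± 0.12 and 0.21 ± 0.17, did not pass. Gpt2 had 597, 882 and 863 against 433, 431 and 283 CPM (log2 -1.03 ± 0.20, adjusted p 0.00691). Got1, the cytosolic aspartate aminotransferase, had 588, 698 and 734 against 412, 277 and 138 CPM (log2 -1.29 ± 0.33, adjusted p 0.0211). The Got1 call did not pass without sham 2, sham 3 or hepatectomy 2, with values from -1.69 to -0.97. Bckdha, a subunit of the branched-chain ketoacid dehydrogenase, and Aass fell by 0.78 ± 0.08 and 0.75 ± 0.13 (adjusted p 0.000281 and 0.00352), and Agxt, Haao and Gnmt by 0.69 ± 0.14, 0.65 ± 0.13 and 0.45 ± 0.09.

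Gls2 had 329, 313 and 338 CPM in sham livers and 221, 233 and 213 CPM after hepatectomy (log2 -0.55 ± 0.08, adjusted p 0.00139). Sds had 367, 392 and 457 against 283, 201 and 73.8 CPM. Its groups were apart but the hepatectomy libraries were far from each other, and the log2 fold change of -1.12 ± 0.40 did not pass (adjusted p 0.0658). The 18 genes not called ranged from -1.12 to 0.82. Besides Got1, the calls of 6 genes were lost with 1 library left out, those of Ass1 (without sham 1, 2 or 3 or hepatectomy 1), Aldh4a1 (without sham 2, sham 3 or hepatectomy 2), and Afmid, Prodh2, Gstz1 and Cth (without any 1 library other than hepatectomy 3). Their values over these fits ran from -0.39 to -0.30, -0.40 to -0.27, -0.91 to -0.48, -0.49 to -0.29, -0.40 to -0.26 and -0.36 to -0.22. Of the 28 calls, 6 were lost in the fit over all 26 libraries, among them Mat1a, and 4 with the replicate block. Those fits called 22.7% and 26.6% of all genes, against 30.7% here.

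The falls went beyond the 46 genes. Of 14 further branched-chain enzymes 11 were lowered and none raised, led by Mccc2, Auh and Aldh6a1 at -0.73 ± 0.08, -0.73 ± 0.09 and -0.73 ± 0.08. Of 11 phenylalanine, glycine and folate-linked enzymes 7 were lowered, led by Ahcy (S-adenosylhomocysteine hydrolase) at -0.97 ± 0.11, and of 8 further tryptophan, lysine and hydroxyproline enzymes 5 were lowered. Amino acid synthesis went the other way, with 5 of 7 genes raised: Asns by 2.74 ± 0.72, Psat1 by 2.33 ± 0.29, Phgdh (the first enzyme of serine synthesis) by 2.25 ± 0.39 and Aldh18a1 by 1.62 ± 0.38. Asns varied widely after hepatectomy, from 4.65 to 48.6 CPM, and passed in 3 of the 6 leave-one-out fits (1.64 to 3.23). Of 13 regulators 6 were lowered, led by Ppargc1a (-1.74 ± 0.38), Foxo1 (-1.15 ± 0.11) and Klf15 (-0.88 ± 0.11). The glucagon receptor gene Gcgr fell by 0.55 ± 0.08. Hepatocyte markers summed to 120163 to 124799 CPM in sham livers and 91849 to 106031 CPM after hepatectomy. The sums of 5 lists of other cells overlapped between the groups (stellate and fibroblast 132 to 176 against 165 to 197 CPM, macrophage 110 to 190 against 159 to 256 CPM). Single markers of other cells were called all the same. Raised were 1 of 5 bile duct, 2 of 6 stellate and fibroblast and 1 of 5 macrophage markers, and 1 of 5 endothelium markers was lowered. Their part in the falls was not tested.

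In hepatocytes of mice on the high fat diet, 6 genes rose that had fallen in the knockout (Hal, Uroc1, Amdhd1, Ftcd, Gls2 and Prodh2). How many of all genes did so was not counted. In all, 10 of the 46 genes were raised (21.7%) and 4 lowered (8.70%), with a median log2 fold change of 0.10. Over all 13892 genes tested 12.9% were raised and 11.1% lowered, with a median of 0.01. All 4 histidine enzymes, Sds and Gls2, Prodh2 and Aldh4a1, Gpt and Bckdhb rose, and Csad, Acmsd, Cdo1 and Tdo2 fell. With 2 libraries a group the counts depended on single libraries, and each fit without 1 of them leaves 1 library in a group. In a single fit over all 26 libraries 4 of the 46 genes were called, against 11.6% of all genes.

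Uroc1 had 413 and 483 CPM on chow and 803 and 815 CPM on the high fat diet (1.81-fold, log2 0.85 ± 0.11, adjusted p 0.0072). Hal had 337 and 259 against 607 and 460 CPM (1.79-fold, log2 0.84 ± 0.18, adjusted p 0.0258). Amdhd1 and Ftcd rose by 0.46 ± 0.11 and 0.42 ± 0.09 (adjusted p 0.0341 and 0.0283). The Uroc1 call held without any single library. That of Hal was lost without high fat 1 (range 0.63 to 1.04), that of Amdhd1 without chow 2 or high fat 1 (0.34 to 0.56) and that of Ftcd without any library but high fat 2 (0.35 to 0.48).

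Sds had 247 and 221 CPM on chow and 360 and 368 CPM on the high fat diet (log2 0.64 ± 0.09, adjusted p 0.00993), and Gls2 421 and 405 against 613 and 607 CPM (log2 0.56 ± 0.08, adjusted p 0.0105). Both were apart by far more than the spread within a group, and both calls held without any 1 library but not in the fit over all 26 libraries. Prodh2, hydroxyproline dehydrogenase, rose by 0.62 ± 0.13 (adjusted p 0.0226), a call that missed the threshold without either high fat library (0.46 to 0.79). Gpt, Aldh4a1 and Bckdhb rose by 0.39 ± 0.09, 0.34 ± 0.08 and 0.34 ± 0.08 (adjusted p 0.0283, 0.034 and 0.0283), and none of these calls passed once any 1 of the 4 libraries was removed (ranges 0.32 to 0.45, 0.30 to 0.38 and 0.29 to 0.39).

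Csad had 142 and 128 CPM on chow and 26.8 and 30.8 CPM on the high fat diet (4.68-fold lower, log2 -2.23 ± 0.11, adjusted p 0.000776), a call that held without any 1 library and in each alternative fit run for this comparison. Cdo1 fell by 0.65 ± 0.13 (adjusted p 0.0221, lost without either high fat library, range -0.82 to -0.48). Acmsd went from 19.7 and 14.1 to 7.81 and 9.18 CPM (log2 -0.99 ± 0.19, adjusted p 0.0188), and was not called without high fat 1 (range -1.22 to -0.74). Tdo2 had 3050 and 2751 against 2249 and 2300 CPM (log2 -0.35 ± 0.10, adjusted p 0.0485), which missed the threshold with any 1 library removed (-0.43 to -0.28) and in the fit with the replicate block (adjusted p 0.0889). No urea cycle gene was called among 7: Cps1 had 6640 and 5452 against 3703 and 4882 CPM (log2 -0.49 ± 0.17, adjusted p 0.0828), Ass1 was at 0.12 ± 0.17 and Arg1 at 0.06 ± 0.12. Tat and Mat1a, at -0.38 ± 0.17 and 0.15 ± 0.14, did not pass (adjusted p 0.158 and 0.446). The 32 genes not called ranged from -0.49 to 0.59.

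Among related genes, 5 of 8 further tryptophan, lysine and hydroxyproline enzymes were raised on the high fat diet (Agxt2 by 0.62 ± 0.08, Ido2 by 0.55 ± 0.08) and Aadat fell by 0.91 ± 0.15. Of 7 sulfur and taurine steps 3 were raised, led by Sqor, sulfide quinone oxidoreductase, at 0.69 ± 0.10. Asns fell from 7.19 and 7.32 to 0.179 and 0.255 CPM (log2 -5.05 ± 0.22, adjusted p 0.000588). Of 10 pericentral genes, expressed at the end of the lobule opposite to the periportal one, 7 were lowered and 1 raised (Cyp1a2 -2.40 ± 0.12, Glul -1.35 ± 0.13), while of 9 periportal genes among the 46, 4 were raised and none lowered. Of 5 periportal genes outside the 46, 1 was raised and 2 were lowered. The 4 raised among the 46 were Hal, Uroc1, Sds and Gls2, and no urea cycle gene. Over all genes 12.9% were raised and 11.1% lowered. Of the same 9 genes 4 were lowered in the knockout and 6 after hepatectomy, with none raised, against 19.4% and 14.3% of all genes lowered. Of the 10 pericentral genes 3 were raised and 2 lowered in the knockout, and 2 raised and 3 lowered after hepatectomy. Markers of non-hepatocytes were low in the hepatocyte preparations but higher on the high fat diet. Stellate and fibroblast markers summed to 7.13 to 10.8 CPM on chow and 25 to 29.4 CPM on the high fat diet. Macrophage markers summed to 27.1 to 28.7 and 49.0 to 53.0 CPM, and sinusoidal endothelium markers to 34.6 to 36.7 and 85.3 to 87.7 CPM. Hepatocyte markers summed to 80745 to 83968 and 82011 to 82090 CPM, and the part of the other cells in these results was not tested.

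On cholic acid, Bhmt fell and Hal rose in floxed mice, and 3 further genes were lowered, Haao and Kynu of the tryptophan pathway and Otc. These are 4 lowered (8.70%) and 1 raised (2.17%) of 46, with a median log2 fold change of -0.29. Over all 12577 genes tested 2.5% were lowered and 2.27% raised, with a median of 0.01, and the spread between libraries was the widest of the 5 comparisons (biological coefficient of variation 26.4%). Same-numbered libraries deviated together here, and with the replicate number as a block 2 of the 46 genes were called, Bhmt and Hal, against 1.81% raised and 2% lowered over all genes. DESeq2's Wald test called 14 of the 46 and a fit over all 26 libraries 16, against 11.5% and 21.0% of all genes. Chow 3 stood apart from chow 1 and 2 for Mat1a (6259 against 3631 and 4111 CPM). Without chow 3, 9 of the 46 were called, against 10.4% of all genes. Without any other single library 1 or 2 were called, against 1.48% to 2.3% of all genes.

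Bhmt (ENSMUSG00000074768.5) had 4675, 4212 and 4613 CPM on chow and 563, 800 and 1128 CPM on cholic acid (5.42-fold lower, log2 -2.44 ± 0.27, adjusted p 0.0039, and 0.00926 with the replicate block). Its groups lay far apart and its call held without any 1 library. Hal had 481, 387 and 331 against 1015, 1012 and 665 CPM (2.25-fold higher, log2 1.17 ± 0.23, adjusted p 0.0284, and 0.031 with the block). The call of Hal was lost without chow 1 or 2 or cholic acid 1 or 2, with values from 1.05 to 1.35. Haao had 382, 457 and 517 against 280, 255 and 238 CPM (log2 -0.81 ± 0.18), Otc 615, 662 and 678 against 398, 423 and 339 CPM (log2 -0.75 ± 0.16) and Kynu 280, 266 and 249 against 165, 154 and 165 CPM (log2 -0.72 ± 0.15). Their adjusted p of 0.0391, 0.0391 and 0.0325 became 0.0927, 0.086 and 0.0823 with the block, and each call was lost without any 1 library other than chow 3. The ranges of these fits were -0.92 to -0.70, -0.82 to -0.66 and -0.76 to -0.67.

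Of the 41 genes not called on cholic acid, with log2 fold changes of -1.11 to 1.02, several were near the threshold. Acmsd had 46.4, 44.7 and 26.3 CPM on chow and 67.3, 97.6 and 72.8 CPM on cholic acid (log2 1.02 ± 0.25, adjusted p 0.0588). Csad had 155, 197 and 116 against 79.6, 49.3 and 106 CPM (log2 -1.0 ± 0.30, adjusted p 0.0988). Both were apart without passing. Cps1 was at 0.43 ± 0.18, Tdo2 at -0.54 ± 0.18, Sds at -0.43 ± 0.30, Mat1a at -0.27 ± 0.30, Gls2 at -0.27 ± 0.25, Tat at -0.20 ± 0.23, Ass1 at -0.12 ± 0.22 and Arg1 at -0.01 ± 0.19 (adjusted p 0.118 to 0.976). The taurine and sulfur list had 1 gene raised and 2 lowered of 7: the taurine carrier Slc6a6 rose by 1.89 ± 0.16, and the sulfurtransferases Mpst and Tst fell by 1.53 ± 0.14 and 1.24 ± 0.17 on the log2 scale. Aadat fell by 1.32 ± 0.19, and Gcdh by 0.78 ± 0.18 (adjusted p 0.0473, and 0.0856 with the block). No marker of bile duct, stellate cells, macrophages, endothelium or lymphocytes was called, and the summed levels of each list overlapped between the diets (macrophage 63.4 to 209 against 159 to 267 CPM).

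With TCPOBOP, 0 of the 46 genes and 0% of 12785 genes were called by edgeR against both corn oil libraries. At an unadjusted p under 0.05 there were 751 genes, and DESeq2's Wald test called 109, among the 46 only Bhmt. Without the library labelled corn oil 1, in a single fit with the other 25 libraries, Acmsd rose and Bhmt, Cdo1 and Ass1 fell, 1 raised and 3 lowered of 46 against 2.44% and 1.25% of all genes. That comparison has 1 control library, which is assumed to vary like the other groups. Acmsd had 163 and 171 CPM with TCPOBOP, 173 CPM in corn oil 1 and 28.7 CPM in corn oil 2, so that only the last was low. Its log2 fold change was 0.73 ± 0.80 with both controls (adjusted p 0.958) and 2.55 without corn oil 1 (adjusted p 0.00423). The TCPOBOP libraries lay between the controls for Csad, with 291 and 272 CPM after TCPOBOP, 113 CPM in corn oil 1 and 548 CPM in corn oil 2, and its log2 fold change was -0.23 ± 0.71 with both, -0.95 without corn oil 1 in that fit (adjusted p 0.139) and 1.32 without corn oil 2.

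For Bhmt the fold change hardly moved without corn oil 1 but the call did, with 496 and 677 CPM in the TCPOBOP libraries against 1323 and 1361 CPM in the controls. Its log2 fold change was -1.19 ± 0.24 (adjusted p 0.679) with both controls and -1.21 without corn oil 1 (adjusted p 0.0293). Ass1 had 2195 and 3716 against 2180 and 1744 CPM (log2 -0.59 ± 0.35, and -0.91 with an adjusted p of 0.0499 without corn oil 1), and Cdo1 went from -0.58 ± 0.28 to -0.82 (adjusted p 0.0472). Cps1, Arg1, Hal, Sds, Gls2, Tat, Tdo2 and Mat1a had log2 fold changes of 0.06, -0.31, -0.36, 0.43, -0.51, -0.04, 0.36 and -0.07 with both controls. They did not pass there or in the fit of 25 libraries. In the latter they were at 0.09, -0.63, -0.56, 0.12, -0.85, -0.53, 0.3 and -0.47. The falls of Arg1, Hal, Gls2, Tat and Mat1a were thus larger without corn oil 1.

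Differences between effects were tested directly, since no control library is shared. The knockout effect minus the cholic acid effect was lower for 7 genes and higher for 5 of 46 (6.74% and 7.18% of 13935 genes). All 4 histidine genes were among the 7: Hal fell in the knockout and rose on cholic acid, a difference of -3.33 ± 0.27 on the log2 scale (adjusted p 1.54e-05), and Amdhd1, Ftcd and Uroc1 differed by -1.46 ± 0.30, -1.17 ± 0.24 and -0.86 ± 0.20. Bhmt went the other way, raised in the knockout and lowered on cholic acid, with a difference of 3.08 ± 0.30 (adjusted p 5.83e-05). Csad and Gpt2, raised in the knockout, differed by 1.84 ± 0.36 and 1.34 ± 0.22. All of these calls held without any 1 library. These experiments also differ in age, feeding state and the floxed alleles, which cannot be told apart from the knockout and the diet.

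**Figure D5:**
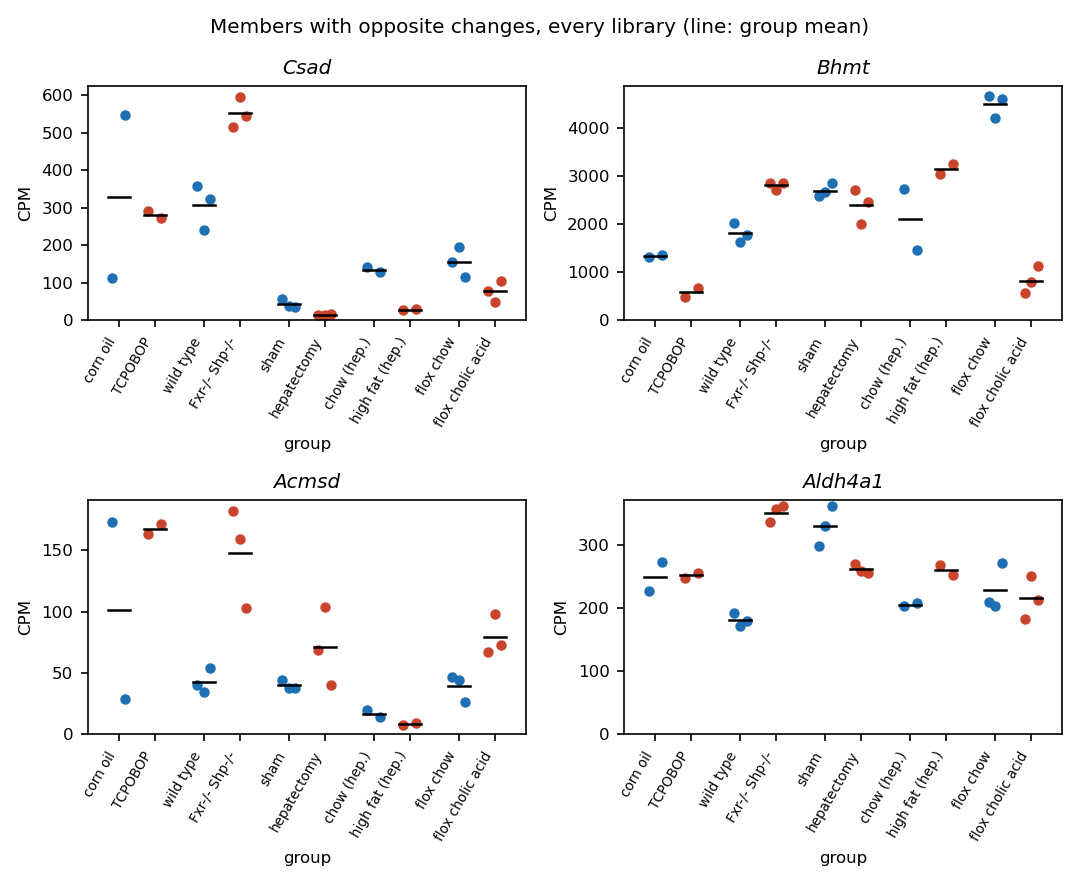
CPM of Csad, Bhmt, Acmsd and Aldh4a1 in every library by group (blue controls, red treated, lines group means). Csad lies higher in the knockout (517 to 596 CPM) than in wild type (242 to 359 CPM) but lower after hepatectomy and on the high fat diet than in the controls, and Bhmt on cholic acid lies at 563 to 1128 CPM against 4212 to 4675 CPM on chow.

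The high fat effect minus the knockout effect was higher for 13 and lower for 4 genes (8.11% and 7.98% of 14280 genes). Hal had a difference of 3.00 ± 0.22, Gls2 of 1.88 ± 0.17, Sdsl of 1.87 ± 0.26 and Prodh of 1.51 ± 0.17. The other histidine genes followed, with 1.42 ± 0.15 for Ftcd, 1.41 ± 0.16 for Amdhd1 and 1.37 ± 0.15 for Uroc1. Csad and Acmsd differed in the other direction, by -3.07 ± 0.23 and -2.78 ± 0.37. These 9 calls held without any 1 library. The tissue also differed between these experiments, hepatocytes on one side and whole liver on the other, as did age and fasting, so these cannot be told apart from diet and genotype.

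The hepatectomy effect minus the knockout effect was higher for 8 genes and lower for 10 (16% and 15.4% of 14755 genes). Strain (C3H/HeN against C57BL/6J) and age differ between these experiments too and cannot be told apart from surgery and genotype. Of 11 genes lowered in both comparisons (Ass1, Hal, Amdhd1, Gls2, Tat, Hpd, Tdo2, Haao, Prodh2, Aass and Cth), Hal, Gls2 and Tdo2 fell further in the knockout, by 1.49 ± 0.15, 0.76 ± 0.14 and 0.60 ± 0.20 on the log2 scale. For the other 8 the difference did not pass, which does not show that they fell alike. How many of all genes were lowered in both comparisons was not counted. Csad, Gpt2 and Aldh4a1, raised in the knockout and lowered after hepatectomy, differed by -2.35 ± 0.25, -1.69 ± 0.26 and -1.30 ± 0.12, and Nags, lowered in the knockout and raised after hepatectomy, by 1.12 ± 0.12. The difference of Tdo2 (adjusted p 0.0383) passed in 3 of the 12 leave-one-out fits (0.49 to 0.85), while the others named here with values held without any 1 library.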

How the data were processed

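Gene-level read counts of 26 libraries of polyadenylated RNA (stranded mRNA kit, per the labels' protocols) were used as deposited. The authors' tools, per the submitters' processing notes, were bcl2fastq 2.17.1.14, Trimmomatic, STAR 2.4.2a, Picard 1.119 and HTSeq, with builds GRCm38 and mm10 named. The annotation release and the use of strand are not given in the sources used here. The 5 summary lines of the count table stayed out of library sizes and tests. Depth sets the precision: 3 counts stand for 0.0426 to 0.215 CPM, depending on the library.

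Each experiment was fitted alone with edgeR 4.0.16 (R 4.3.3; filterByExpr, minimum count 10 and minimum total 15; TMM scaling; glmQLFit and glmQLFTest). P-values were adjusted by Benjamini-Hochberg over all genes tested and called at 0.05. Standard errors are the fold change divided by the root of F. Differences between effects were contrasts in a joint fit of 2 experiments. Alternatives were DESeq2 1.42.0 size factors and Wald test, other filters, 1 fit over all 26 libraries, the replicate block, leaving out each library, and TCPOBOP without corn oil 1. The knockout fit, the high fat fit and the knockout minus cholic acid fit were run on simulated counts with known changes. The simulated spread was the same for all genes, so that check does not cover the spread of these data.

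The 46 genes, the role groups and the related lists were chosen with earlier results of these data known. Named were the called members with the 10 largest rises and falls of each comparison and, always, Cps1, Ass1, Arg1, Hal, Sds, Gls2, Tat, Tdo2, Mat1a and Csad. From related lists up to 4 called genes were named. Exon lengths and overlaps came from GENCODE M21, promoter windows from RefSeq.

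The labels give replicate numbers in each group. Same-numbered libraries deviated together in the cholic acid experiment (correlations of 0.133, 0.155 and 0.103). Its blocked values are therefore given beside the unblocked ones, although the labels do not say that these animals were paired. Same-numbered libraries did not deviate together in the knockout (-0.176 to -0.019) or hepatectomy (-0.075 to 0.072) experiments. The 2 experiments with 2 libraries a group do not allow the check.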

Additional observations from a re-analysis of the deposited data

Results flagged for a closer look

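In each of 14 cases a gene was called in opposite directions in 2 experiments and the test of the difference between the effects passed as well (edgeR's quasi-likelihood test, adjusted over all genes; values are differences of log2 fold changes ± SE). The number of such cases among all genes was not counted.

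Between the knockout and cholic acid feeding there were 2 such genes. Hal, which takes ammonia from histidine, was lowered in the knockout and raised on cholic acid, with a difference of -3.33 ± 0.27 (adjusted p 1.54e-05). Bhmt, the betaine-dependent methyltransferase, was raised and lowered, with a difference of 3.08 ± 0.30 (adjusted p 5.83e-05).

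Between hepatectomy and the knockout there were 4. Nags, whose product activates Cps1, differed by 1.12 ± 0.12 (adjusted p 2.58e-05), since it rose after hepatectomy and fell in the knockout. Aldh4a1, Gpt2 and Csad went the other way, by -1.3 ± 0.12, -1.69 ± 0.26 and -2.35 ± 0.25 (adjusted p 8.44e-06, 0.000356 and 2.18e-05).

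Between the high fat diet and the knockout there were 8. The histidine enzymes Hal, Uroc1, Amdhd1 and Ftcd differed by 3.0 ± 0.22, 1.37 ± 0.15, 1.41 ± 0.16 and 1.42 ± 0.15, the glutaminase gene Gls2 by 1.88 ± 0.17 and Prodh2 by 0.95 ± 0.18, all raised on the diet and lowered in the knockout. Acmsd and Csad differed by -2.78 ± 0.37 and -3.07 ± 0.23. The adjusted p of these 8 ran from 1.44e-05 to 0.0048, and the tissue preparation differs between the experiments as well.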

How the results depend on the processing

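No gene called by edgeR with all libraries of a comparison or difference changed sign under any alternative run. For TCPOBOP, where none was called with both controls, Csad was at -0.96 without corn oil 1 and at 1.32 without corn oil 2. Acmsd, raised without corn oil 1, was at 2.55 there and at -0.05 without corn oil 2. Counts of the 46 genes moved most where the spread was wide or libraries few. For TCPOBOP, 0 genes became 1 in DESeq2's Wald test, 4 without corn oil 1 in a fit of 25 libraries, and 0 to 13 with 1 library left out (13 without corn oil 1, 3 without corn oil 2). The median shift of the 46 genes against all genes, -0.14 on the log2 scale, was -0.32 in the fit of 25 libraries and -0.31 to -0.05 in leave-one-out fits. For the high fat diet, 14 genes became 4 in 1 fit over all 26 libraries and 4 to 11 in leave-one-out fits, and the median shift of 0.09 ran from -0.01 (without chow 2) to 0.14. For cholic acid, 5 genes became 14 in the Wald test, 9 with no filter, 16 over all 26 libraries and 1 to 9 in leave-one-out fits. The count of 17 for the high fat effect minus the knockout effect ran from 10 to 24.

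With the replicate block, 2 genes were called for cholic acid. In the experiments where the numbers were not found to pair the libraries, the counts with the block were 27 for the knockout (24 without) and 25 for hepatectomy (28). For the high fat diet, where 2 libraries a group do not allow the check, the count was 15 (14 without). The shares of all genes called with the block were 35.4% for the knockout (40.4% without), 26.6% for hepatectomy (30.7%) and 26.6% for high fat (24.0%). Over all genes, 600 calls for cholic acid became 1445 in the Wald test, 955 with no filter, 3132 over all 26 libraries and 189 to 1345 in leave-one-out fits. For the high fat diet 3333 became 1735 over all 26 libraries, and 1141 to 2644 in leave-one-out fits. For TCPOBOP 0 became 109 in the Wald test, 9 over all 26 libraries, 569 in the fit of 25 and up to 1233 with 1 library left out. The causes of these moves were not tested beyond the fewer samples or other spread that each fit has by construction.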
